A study of Mus musculus with 12 samples.

Results

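ZFP36-family and regnase-family proteins are RNA-binding proteins that shorten the life of messenger RNAs. The genes described here are Zfp36, Zfp36l1 and Zfp36l2 of the ZFP36 family and Zc3h12a and Zc3h12c of the regnase family. They were found by matching the symbol of each Ensembl identifier, and are 5 of the 37310 genes in the count table. The choice was made with earlier results of these data known. Zfp36l3, Zc3h12b and Zc3h12d of the same families are not among the 5 and are described apart. All 5 passed the filter on low counts, which left 16630 genes for testing. In cells treated with a phorbol ester, Zfp36, Zfp36l1, Zfp36l2 and Zc3h12a rose in both lines studied, while Zc3h12c did not pass the test in either.

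Ribosome-depleted total RNA was sequenced from MEF-derived lines, that is, mouse lines that go back to embryonic fibroblasts, grown in medium with serum. The first group, KO PMA, is a line labelled as a knockout for HP1γ (the Cbx3 gene product, a heterochromatin protein) that received PMA, a phorbol ester dissolved in DMSO, at 100 nM for 30 min when close to confluence. The second group, KO, is that line untreated. The remaining groups, HPg PMA and HPg, are a line in which HP1γ expression was restored, with the same PMA exposure and untreated. Each group has 3 libraries, described as biological triplicates. No source used here says whether the untreated cells received DMSO. A genotype is represented by 1 line, so line and genotype cannot be told apart.

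PMA activates protein kinase C and, through it, MAP kinase and NF-κB signalling. ZFP36 proteins (ZFP36 is also called tristetraprolin) hold a tandem pair of CCCH zinc fingers that bind AU-rich elements in 3′ untranslated regions and recruit the CCR4-NOT deadenylase. Regnase-1, encoded by Zc3h12a, is an endoribonuclease that cuts stem-loops in transcripts of inflammatory genes, and Zc3h12c encodes its relative regnase-3. Zfp36 is a classic immediate-early gene of fibroblasts, and its protein is known to act on its own mRNA as well as on those of cytokines and growth factors.

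Total counts per library ranged from 111458145 to 159929347. HPg library 2 detected 17822 genes, and the other libraries 19759 to 20656. The abundant noncoding RNAs Rpph1, Rn7sk and Rmrp took 12.54% to 19.25% of the counts in KO PMA, 8.59% to 16.84% in KO, 9.69% to 16.2% in HPg PMA and 11.7% to 14.29% in HPg libraries. Cbx3 RNA was at 33.27, 26.85 and 35.2 CPM in KO PMA libraries, at 35.51, 39.02 and 34.97 CPM in KO libraries, at 43.11, 33.8 and 38.93 CPM in HPg PMA libraries and at 37.07, 37.43 and 41.49 CPM in HPg libraries. CPM is the count scaled to library size in the usual way, with TMM factors. Cbx3 RNA did not differ by the edgeR quasi-likelihood test with PMA (log2 difference of KO over HPg -0.28, adjusted p = 0.269) or without it (-0.08, adjusted p = 0.838), so the whole-gene count does not check the genotype labels, and KO is used below as the label's word. Of 9 fibroblast markers, 8 passed the filter, and they summed to 9630 to 16500 CPM per library, while Thy1, a surface marker of many fibroblasts, had at most 5 counts in any library. Blood and immune markers (8 genes) summed to 5.56 to 6.87 CPM in KO PMA, 3.88 to 4.26 CPM in KO, 3.47 to 5.66 CPM in HPg PMA and 2.54 to 2.99 CPM in HPg libraries. Of these, Cd3e had at most 1 count in any library and Ptprc at most 12, while Lyz2 had up to 336. Mean Lyz2 levels were 2.42 CPM in KO PMA, 2.04 in KO, 1.29 in HPg PMA and 1.02 in HPg cells. Lyz2 was not called between the lines by edgeR with PMA (log2 difference of KO over HPg 0.91, adjusted p = 0.214) or without it (1, adjusted p = 0.23). Epithelial, endothelial and muscle markers summed to 4.47 to 9.58, 1.9 to 8.8 and 21.2 to 79.2 CPM per library. Of all marker genes edgeR called only Des, a muscle gene, which was higher in KO PMA than in HPg PMA cells. A fit with the replicate number as a block also called Col1a1, Col3a1 and Krt8 higher there (18.6% of all genes in either direction). Without PMA it called Col3a1 higher and Vim and Kdr lower in KO than in HPg cells (12.5%). With PMA in the HPg line it called Pdgfrb and Cdh1 lower (14.8%). Cd68, a macrophage marker, was at 2.47 ± 0.615 CPM in KO PMA and 1.37 ± 0.155 CPM in KO cells, and at 2.17 ± 0.354 CPM in HPg PMA and 1.24 ± 0.153 CPM in HPg cells (SD, n = 3 each). With PMA it was called higher in both lines by DESeq2 and the fit with a replicate block (edgeR adjusted p = 0.0643 in KO and 0.0913 in HPg), and DESeq2 also called Csf1r higher with PMA in the KO line. The part of such cells in the results was not tested.

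The AU-rich heptamer TATTTAT, written as DNA and read on the transcript strand, was searched in the longest protein-coding transcript of each gene (GENCODE M21, GRCm38). It is shown because it is the core sequence that ZFP36 proteins bind, and because the family's own transcripts carry it. Each of Zfp36, Zfp36l1 and Zfp36l2 had 3 copies in its 3′ untranslated region, and in each gene 1 copy lay within the longer nonamer TTATTTATT. Zc3h12c had 2 heptamers and no nonamer, and Zc3h12a had neither. The sites below give the heptamer in capitals.
Zfp36 (Zfp36-201, chromosome 7, base 575 of the 3′ region): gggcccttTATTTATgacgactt
Zfp36 (base 590, within a nonamer): gacgacttTATTTATtgtattaa
Zfp36 (base 615): ttttatagTATTTATatatattg
Zfp36l1 (Zfp36l1-201, chromosome 12, base 1405, within a nonamer): tgttggatTATTTATtttagaaa
Zfp36l2 (Zfp36l2-201, chromosome 17, base 822, within a nonamer): atttaactTATTTATtatcttgt
Zc3h12c (Zc3h12c-202, chromosome 9, base 527): ataatcatTATTTATaggaacaa

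The 3 Zfp36 sites lay close together near the end of a region of 774 bases. Among 1570 other tested genes whose 3′ region is within 20% of that length, 19.7% had at least 1 heptamer and 0.701% had at least as many as Zfp36. Zfp36l1 and Zfp36l2 have longer 3′ regions of 1835 and 1822 bases. Of length-matched genes, 37.3% had a heptamer and 3.8% had 3 or more, for both. At the length of Zc3h12c (4062 bases) 58.6% of genes had a heptamer and 27.5% had at least 2. A match is a description of letters and does not show that the site is bound.

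**Figure D1:**
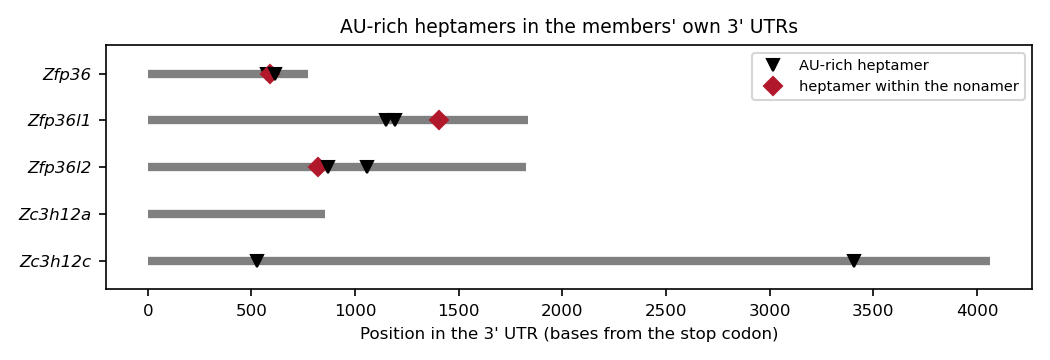
The 3′ untranslated region of the longest protein-coding transcript of each gene is drawn to scale as a bar, in bases from the stop codon, with triangles at AU-rich heptamers and diamonds at heptamers within the nonamer. The 3 ZFP36 genes hold 3 heptamers each, Zc3h12c holds 2 and Zc3h12a none.

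Promoter windows of 250 bases before the start site were available for Zfp36, Zfp36l1, Zc3h12a and Zc3h12c (RefSeq, GRCm38.p6), read in the direction of the gene. Of 3000 windows checked, the bases after the start site lay in a GENCODE transcript of the gene in 2316 as given and 0 reversed. Among the windows of the members this held for 2, and the other start sites rest on RefSeq alone. Windows are shown for Zfp36 and Zfp36l1, which responded to PMA and hold a match to the CArG box and to the AP-1 pattern, respectively. Motifs searched on both strands were the CArG box, which serum response factor binds, the NF-κB consensus and the AP-1 pattern TGANTCA, with N for any base. The CRE core TGACG of cAMP-responsive genes, the TATA element TATAAA and the GC box GGGCGG were searched as well. Capitals mark matches to all but the GC box.
Zfp36 (chr7:28379229-28379478, minus strand): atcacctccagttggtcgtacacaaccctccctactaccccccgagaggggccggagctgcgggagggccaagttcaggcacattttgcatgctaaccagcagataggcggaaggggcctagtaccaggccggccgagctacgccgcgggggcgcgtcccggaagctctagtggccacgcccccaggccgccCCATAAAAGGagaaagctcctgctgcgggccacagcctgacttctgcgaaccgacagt
Zfp36l1 (chr12:80113014-80113263, minus strand): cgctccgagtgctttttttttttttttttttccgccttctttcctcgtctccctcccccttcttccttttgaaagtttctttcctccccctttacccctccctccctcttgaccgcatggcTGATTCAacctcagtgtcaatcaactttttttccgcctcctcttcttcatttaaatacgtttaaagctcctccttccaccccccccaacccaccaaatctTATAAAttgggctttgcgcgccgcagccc

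The capitals in Zfp36 are a CArG box, whose first base is 58 bases before the start site. Of 32851 windows in the table, 1.47% hold such a box. In Zfp36l1 the capitals are TGATTCA, a match to the AP-1 pattern with T at its open base (6.75% of windows), and a TATA element (12.4%). No narrower AP-1 pattern was searched. The Zc3h12a window held 5 GC boxes and none of the other motifs, and 32.7% of windows hold at least 1 GC box. The first Zc3h12c window held an NF-κB consensus match (7.25% of windows) and a GC box, and its second window held a TGACG core (17.8%). The absence of a match says only that these letters are not in this window.

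PMA raised the RNA of 4 of the 5 genes in the KO line and of the same 4 in the HPg line. With adjusted p below 0.05 in the edgeR quasi-likelihood test over all 16630 genes as the threshold, 2.81% of genes were called higher with PMA in the KO line and 2.53% in the HPg line. The libraries with and without PMA did not overlap for any of the 4 genes in either line. By that measure alone, 10.6% of all genes were higher in the KO line and 12.3% in the HPg line. The members are described in turn below.

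Zfp36 had the largest response of the 5 genes. It was at 195.5, 163.7 and 128.3 CPM in KO PMA libraries, against 9.479, 8.063 and 6.268 CPM in KO libraries. In the HPg line it was at 82.2, 121.8 and 61.02 CPM with PMA, against 6.57, 8.235 and 6.398 CPM without. All 6 PMA libraries were far above all 6 untreated libraries, and KO PMA libraries were all above HPg PMA libraries. The log2 difference of PMA over untreated was 4.36 in the KO line (SE 0.28, adjusted p = 1.74e-06) and 3.64 in the HPg line (SE 0.27, adjusted p = 7.89e-06). Ranked by that difference, Zfp36 was number 22 of all tested genes in the KO line and number 33 in the HPg line. Taking libraries with the same replicate number together, the ratio of PMA to untreated was 20.6, 20.3 and 20.5 in the KO line and 12.5, 14.8 and 9.54 in the HPg line.

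Zfp36l1, a paralogue known for its roles in development and lymphocytes, rose less with PMA. Its levels were 183, 147.4 and 140.7 CPM in KO PMA libraries, against 55.25, 53.51 and 57.1 CPM in KO libraries. In the HPg line they were 103.9, 94.15 and 65.08 CPM with PMA, against 34.06, 32.54 and 32.52 CPM without. The untreated libraries of a line lay close together, with an SD of 1.8 CPM in KO and 0.882 CPM in HPg, while HPg PMA library 3 was well below the other HPg PMA libraries. The log2 difference was 1.51 in the KO line (SE 0.16, adjusted p = 0.000154) and 1.41 in the HPg line (SE 0.16, adjusted p = 0.00046).

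Zfp36l2, the paralogue with known roles in blood progenitors and oocytes, was the most abundant of the family. It had 613.3, 693.4 and 493.8 CPM in KO PMA libraries, against 208.3, 222.9 and 155.7 CPM in KO libraries. With PMA the HPg line had 502.7, 545.7 and 366.4 CPM, against 204.4, 214 and 137.2 CPM without PMA. Library 3 was the lowest of its group in all 4 groups. The log2 difference with PMA was 1.62 in the KO line (SE 0.23, adjusted p = 0.00143) and 1.35 in the HPg line (SE 0.22, adjusted p = 0.00635). Same-numbered ratios were 2.94 to 3.17 in the KO line and 2.46 to 2.67 in the HPg line, a narrower range than the levels themselves.

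Zc3h12a, the regnase-1 gene, was at 31.13, 32.11 and 28.46 CPM in KO PMA libraries, against 11.6, 10.7 and 11.03 CPM in KO libraries. Its HPg levels were 15.85, 24.16 and 23.74 CPM with PMA, against 9.595, 12.55 and 13.07 CPM without. The gap between treated and untreated libraries was wide in the KO line and narrower in the HPg line, where HPg PMA library 1 lay just above HPg library 3. PMA raised it by 1.46 on the log2 scale in the KO line (SE 0.17, adjusted p = 0.000321) and by 0.86 in the HPg line (SE 0.17, adjusted p = 0.0167). In the HPg line the adjusted p was 0.0582 when HPg library 1 was left out, 0.0688 without HPg PMA library 2 and 0.0733 without HPg PMA library 3. It was 0.0555 without all libraries numbered 2 and 0.0974 in a fit of these groups alone, with log2 differences of 0.73 to 0.86 in these 5 fits, so the call ended in each. The call held in 3 of 6 fits without 1 library and in 7 of 9 other alternatives. Among the latter were DESeq2 (adjusted p = 0.000362) and the replicate block (0.00126).

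Zc3h12c, the regnase-3 gene, had 18.15, 24.96 and 25.2 CPM in KO PMA libraries, against 18.09, 30.64 and 22.3 CPM in KO libraries. Its HPg levels were 25.24, 27.36 and 24.24 CPM with PMA, against 18.84, 24.65 and 21.59 CPM without. All 4 groups overlapped. The log2 difference of PMA over untreated was -0.06 in the KO line (95% interval -0.47 to 0.36, adjusted p = 0.945) and 0.24 in the HPg line (95% interval -0.17 to 0.65, adjusted p = 0.581). Both intervals end below the fitted difference of every other member in the same line.

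**Figure D2:**
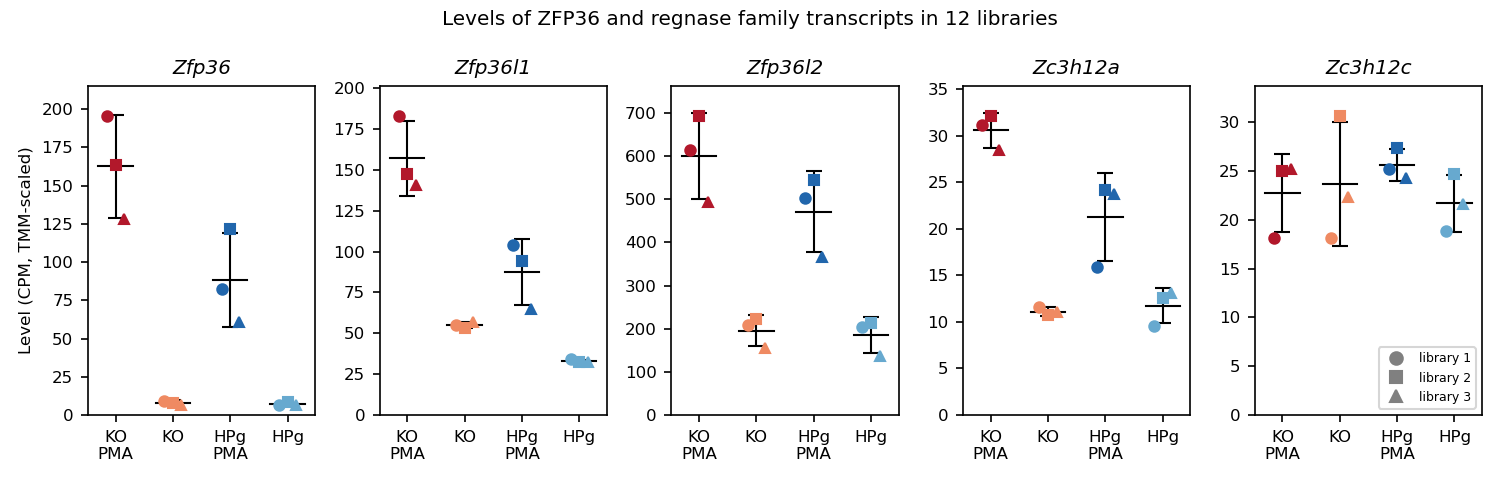
Each panel plots the TMM-scaled level in CPM of a gene in the 12 libraries by group, with a marker shape for the library number and black lines for the mean and SD of 3 libraries. For Zfp36, Zfp36l1, Zfp36l2 and Zc3h12a the PMA libraries of each line lie above its untreated libraries, and for Zc3h12c all groups overlap.

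Between the lines, Zfp36l1 was higher in KO than in HPg cells both with and without PMA. The KO PMA libraries of Zfp36l1 were all above the HPg PMA libraries (log2 difference 0.84, SE 0.16, adjusted p = 0.0211), and the KO libraries were all above the HPg libraries (0.74, SE 0.16, adjusted p = 0.0427). Same-numbered ratios of KO over HPg were 1.76, 1.57 and 2.16 with PMA and 1.62, 1.64 and 1.76 without. In the edgeR fit without a replicate block it was the only member called between the lines. That fit called 1.29% of all genes higher in KO with PMA and 0.806% without. The libraries of 12.5% of genes with PMA and 9.57% without were all higher in KO. The call without PMA ended when any of the 6 libraries was left out (adjusted p from 0.063 to 0.165, log2 difference 0.72 to 0.76), and the call with PMA ended without HPg PMA library 3 (0.66, adjusted p = 0.0716) or KO PMA library 1 (0.71, adjusted p = 0.0982). Of 9 other alternatives, 6 kept the call without PMA and 9 the call with PMA. Among them were DESeq2 (adjusted p = 0.00321 without and 0.000334 with PMA) and the replicate block (0.00163 and 0.000601).

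Zfp36 and Zc3h12a were higher in every KO PMA library than in any HPg PMA library, but neither passed the test over all genes. For Zfp36 the log2 difference of KO PMA over HPg PMA was 0.88 (SE 0.24, adjusted p = 0.0759), and for Zc3h12a it was 0.52 (SE 0.17, adjusted p = 0.12). Zfp36l2 was at 0.35 (SE 0.22, adjusted p = 0.438) with overlapping libraries, and Zc3h12c at -0.17 (SE 0.19, adjusted p = 0.693). Same-numbered ratios of KO PMA over HPg PMA were 1.22, 1.27 and 1.35 for Zfp36l2 and 0.719, 0.912 and 1.04 for Zc3h12c. With the replicate number as a block in the fit, 4 of the 5 members were called higher in KO PMA than in HPg PMA cells, where that fit called 9.49% of all genes higher. Their adjusted p were then 0.00143 for Zfp36, 0.000601 for Zfp36l1, 0.0159 for Zfp36l2 and 0.0153 for Zc3h12a. The Zfp36 difference was also called without HPg PMA library 2 (1.17, adjusted p = 0.0209), without all libraries numbered 2 (1.18, adjusted p = 0.0162) and by DESeq2 (0.87, adjusted p = 0.0186).

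Without PMA the 4 other members did not pass the test between the lines. The log2 difference of KO over HPg was 0.17 for Zfp36 (95% interval -0.36 to 0.7), 0.08 for Zfp36l2 (-0.4 to 0.56), -0.08 for Zc3h12a (-0.44 to 0.28) and 0.13 for Zc3h12c (-0.29 to 0.54). Their libraries overlapped between the lines. In these bulk samples, fewer cells with a transcript and less of it per cell cannot be told apart.

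Whether PMA acted differently in the 2 lines was tested with the interaction of line and PMA. No member passed, and neither did any of the 16630 genes by edgeR (0% called). An unadjusted p below 0.05 was given to 328 genes (1.97%), and in the fit with a replicate block to 1275 genes (7.67%), again with none called. The fit without the block leaves out the pairing of libraries by replicate number. Its 1.97% is below the share that a threshold of 0.05 gives where no gene differs. An absent call therefore does not show that the responses of the lines are alike. DESeq2 called 1 gene, Fosl1, an AP-1 subunit named here after its value was seen. The PMA response of Zfp36 was larger in KO than in HPg cells by 0.71 on the log2 scale (95% interval -0.03 to 1.45, adjusted p = 1), and that of Zc3h12a by 0.6 (0.09 to 1.12, adjusted p = 1). The unadjusted edgeR p was 0.0585 for Zfp36 and 0.0246 for Zc3h12a, and in the blocked fit 0.00358 and 0.00771 (adjusted p = 0.629 for both). For Zfp36l1 (0.1), Zfp36l2 (0.27) and Zc3h12c (-0.3) the 95% intervals were -0.39 to 0.58, -0.41 to 0.95 and -0.88 to 0.29.

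**Figure D3:**
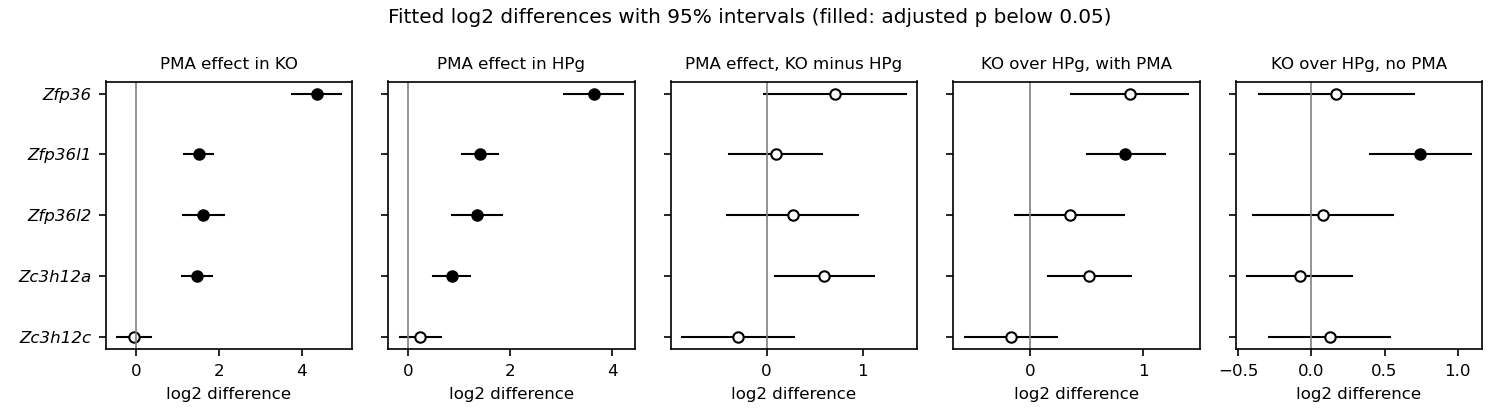
Fitted log2 differences of each gene are plotted with 95% intervals for the PMA effect in each line, the interaction (KO minus HPg) and the line difference with and without PMA, filled where adjusted p is below 0.05. The PMA effects of 4 genes are filled in both lines, and of the line differences only those of Zfp36l1 are.

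To compare the genes with each other, levels were divided by the length of the union of annotated exons (GENCODE M21), giving CPM per kb. With PMA, Zfp36l2 led with 170 ± 28.5 CPM per kb in KO and 134 ± 26.5 in HPg cells (SD, n = 3 each). Zfp36l1 followed with 52.5 ± 7.6 in KO PMA and 29.3 ± 6.75 in HPg PMA, and Zfp36 with 46.8 ± 9.68 in KO PMA and 25.5 ± 8.89 in HPg PMA. The ranges of Zfp36l1 and Zfp36 overlapped in both PMA groups. Within each KO PMA library Zfp36l1 was above Zfp36 (61.19 against 56.33, 49.31 against 47.17 and 47.05 against 36.98). In HPg PMA library 2 it was below (31.49 against 35.11), and above in the other HPg PMA libraries. With the longest transcript as the length, Zfp36 was above Zfp36l1 in both PMA groups. The means were then 58.2 against 52.5 in KO PMA and 31.7 against 29.3 in HPg PMA. Zc3h12a was at 10.6 ± 0.656 in KO PMA and 7.37 ± 1.62 in HPg PMA, and Zc3h12c was lowest with 3.33 ± 0.585 in KO PMA and 3.74 ± 0.233 in HPg PMA.

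Without PMA the order of levels per length was Zfp36l2, Zfp36l1, Zc3h12a, Zc3h12c and Zfp36 in both lines. Zfp36l2 was at 55.4 ± 10 CPM per kb in KO and 52.5 ± 11.9 in HPg cells, and Zfp36l1 at 18.5 ± 0.602 in KO and 11.1 ± 0.295 in HPg cells. Zc3h12a (3.85 ± 0.159 in KO and 4.07 ± 0.651 in HPg) and Zc3h12c (3.46 ± 0.933 in KO and 3.17 ± 0.424 in HPg) had overlapping ranges in both lines. Within each HPg library Zc3h12a was above Zc3h12c (3.329 against 2.753, 4.356 against 3.601 and 4.535 against 3.154). In KO library 2 it was below (3.712 against 4.476), and above in the other KO libraries. Zfp36 was lowest with 2.29 ± 0.464 in KO, where it overlapped with Zc3h12c, and 2.04 ± 0.292 in HPg. Among all genes with a length, Zfp36 lay at percentile 94.7 of the level per length in KO PMA and 40.3 in KO, and at 89 in HPg PMA and 39.2 in HPg, while Zfp36l2 lay between 95.9 and 98.7 in all 4 groups.

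The summed level per length of the ZFP36 family was 269 ± 39.3 CPM per kb in KO PMA and 76.2 ± 9.83 in KO cells, and 188 ± 40.5 in HPg PMA and 65.6 ± 12.2 in HPg cells. Zfp36 made up 17.3% ± 1.74 of that sum in KO PMA and 2.99% ± 0.361 in KO, and 13.3% ± 2.24 in HPg PMA and 3.15% ± 0.458 in HPg cells (SD, n = 3 each). The share of Zfp36l2 was 63.1% ± 3.74 in KO PMA and 72.4% ± 4.09 in KO, and 71.1% ± 1.31 in HPg PMA and 79.6% ± 3.72 in HPg cells. Of Zc3h12a and Zc3h12c together, Zc3h12a made up 76.1% ± 3.82 in KO PMA and 53.2% ± 7.58 in KO, and 65.8% ± 5.25 in HPg PMA and 56.1% ± 2.48 in HPg cells. The Zfp36 share was thus higher in every PMA library than in any untreated library of its line, while Zfp36l2 remained the largest part of the family in all 12 libraries. These shares are descriptions without a test.

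**Figure D4:**
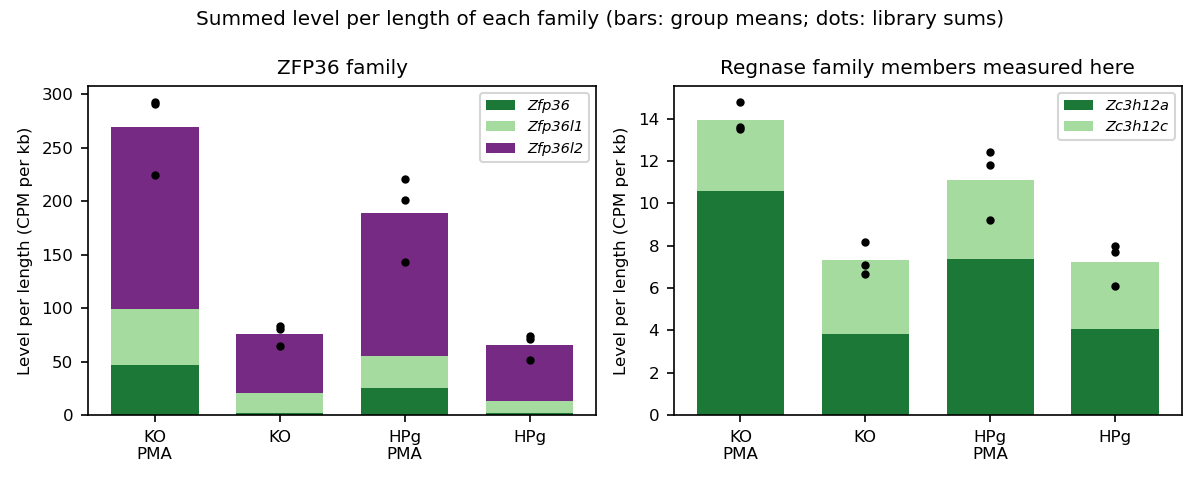
Stacked bars give the mean level per length (CPM per kb of exon) of the genes of each family in the 4 groups, and dots give the sum in each library. The ZFP36 sum is 269 CPM per kb in KO PMA and 76.2 in KO, and Zfp36l2 is the largest layer in every group.

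Zfp36l3, the X-linked family member known from rodent placenta, had 0 counts in every library and was not tested. Zc3h12b, encoding regnase-2, was at 11.5 ± 2.48 CPM in KO PMA and 15.5 ± 4.3 in KO, and at 14.5 ± 0.919 in HPg PMA and 16.6 ± 4.34 in HPg cells (SD, n = 3 each), and Zc3h12d, the regnase-4 gene of lymphocytes, had at most 34 counts in a library. Of the 8 relatives and partners listed, 7 were tested and edgeR called none in any comparison. At unadjusted p below 0.05 there was 1 with PMA in the KO line (15.9% of all genes), 1 with PMA in the HPg line (17.4%), 1 in KO PMA over HPg PMA (18.4%) and 2 in KO over HPg (14.3%). The blocked fit called N4bp1 and Zc3h12b lower with PMA in the KO line, Rc3h2 higher with PMA in the HPg line and Khnyn higher in KO PMA than in HPg PMA cells. The roquin genes Rc3h1 and Rc3h2, whose proteins bind stem-loops that regnase-1 also uses, were at 0.05 (adjusted p = 0.934) and 0.17 (adjusted p = 0.66) with PMA in the KO line and at 0.26 (adjusted p = 0.345) and 0.39 (adjusted p = 0.179; 0.0119 with the block) in the HPg line. For the helicase gene Upf1, which works with regnase-1, the log2 difference of KO over HPg without PMA was -0.46 (edgeR adjusted p = 0.11), and DESeq2 and the blocked fit called it lower.

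The decay machinery, of which ZFP36 proteins recruit the CCR4-NOT deadenylase, was read in the same fits. Of 23 deadenylation, decapping and 5′ decay genes, all tested, 1 was higher and 1 lower with PMA in the KO line (median log2 difference -0.01, against -0.016 for all genes), and 1 was higher in the HPg line (median 0.11, against -0.023), where 4.44% and 3.45% of all genes were called in either direction. The higher gene was Patl1 in both lines, a scaffold of decapping, with 0.75 in KO (adjusted p = 0.0136) and 0.71 in HPg cells (adjusted p = 0.0243). The lower gene was Dcp1b, a decapping co-factor, with -0.6 in KO cells (adjusted p = 0.0448) and -0.51 in HPg cells (adjusted p = 0.093). Leaving out any 1 of the 6 libraries ended the Dcp1b call in KO (adjusted p from 0.0572 to 0.181). The Patl1 call ended in 3 of 6 such fits in KO (adjusted p up to 0.0655) and in 4 of 6 in HPg (up to 0.091). In HPg 17 of the 23 lay above 0, and the blocked fit, which called 14.8% of all genes there, called Cnot4, Cnot7, Lsm1 and Patl1 higher and Dcp1b lower. DESeq2 called Cnot7 and Patl1 higher and Dcp1b lower in that line. In KO the blocked fit, which called 13.4% of all genes, called Lsm1 and Patl1 higher and Dcp1b and Xrn1 lower. Between KO PMA and HPg PMA cells edgeR called none of the 23 (7 at unadjusted p below 0.05, against 18.4% of all genes). DESeq2 called Cnot2 lower, and the blocked fit called 7 lower, where it called 9.09% of all genes lower. Cnot2, which is among them, was at -0.53 (edgeR adjusted p = 0.0556). The CCR4-NOT scaffold Cnot1 was at -0.3 in that comparison (adjusted p = 0.208). Without PMA edgeR called none (2 at unadjusted p below 0.05, against 14.3% of all genes). DESeq2 and the blocked fit called the deadenylase gene Pan2 lower in KO (-0.55, edgeR adjusted p = 0.11), and the blocked fit called Dcp1a higher.

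Of 9 other genes for proteins that bind AU-rich or related elements, Arid5a and Hnrnpd rose with PMA in both lines. Of all genes, edgeR called 2.81% higher with PMA in the KO line and 2.53% in the HPg line. The blocked fit called 13.4% and 14.8% in either direction. Arid5a, whose protein is known to protect Il6 mRNA from regnase-1, had 46.8 ± 4.67 CPM in KO PMA and 13 ± 2.42 CPM in KO cells (log2 difference 1.85, adjusted p = 0.000246). In the HPg line it had 35.5 ± 8.58 CPM with PMA and 11.5 ± 2.58 CPM without (1.62, adjusted p = 0.000963). Hnrnpd, the AUF1 gene, rose by 0.58 in KO cells (adjusted p = 0.0334) and by 0.77 in HPg cells (adjusted p = 0.00978). The KO call of Hnrnpd held in 1 of 6 fits without 1 library (adjusted p up to 0.141), and the HPg call in all 6. Elavl1, encoding the stabilising protein HuR, was at 0.31 in KO (adjusted p = 0.253) and 0.34 in HPg cells (adjusted p = 0.187). In HPg the blocked fit also called Elavl1, Pum2 and Tial1 higher, and DESeq2 Tial1. Among 11 kinases and ligases that act on these proteins, edgeR called Mapkapk3 alone, a kinase downstream of p38, higher with PMA in the KO line (1.04, adjusted p = 0.0379) and the HPg line (1.11, adjusted p = 0.0351). That call held in 1 of 6 fits without 1 library in KO (adjusted p up to 0.159) and in 2 of 6 in HPg (up to 0.126). Mapkapk2, whose kinase phosphorylates ZFP36, was at 0.41 in the KO line (adjusted p = 0.0739) and 0.22 in the HPg line (adjusted p = 0.377), and DESeq2 and the blocked fit called it higher with PMA in KO cells. The blocked fit also called Akt1 higher with PMA in KO cells and Mapk14 lower with PMA in both lines. Between the lines neither edgeR nor DESeq2 called a gene of either list, with or without PMA. Among others, the blocked fit called Arid5a and Mapkapk3 higher and Hnrnpd and Ikbkb lower in KO PMA than in HPg PMA cells. It also called Mapkapk3 higher in KO than in HPg cells. In these comparisons that fit called 18.6% and 12.5% of all genes in either direction.

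Of 34 transcripts known from other work as targets of ZFP36 proteins or regnase-1, 24 were tested. The list was chosen with earlier results of these data known, so its counts are a description. With PMA, 14 of the 24 were called higher in the KO line, where 2.81% of all genes were called higher. In the HPg line 12 were called higher, against 2.53% of all genes, and none was called lower in either line. The other 10 in KO and 12 in HPg were not called, and Cd274 lay below 0 in both lines. Their median log2 difference was 1.07 in KO cells, against -0.016 for all genes, and 1.15 in HPg cells, against -0.023. The transcription factor gene Fos was at 302 ± 101 CPM in KO PMA and 2.7 ± 1.29 CPM in KO cells, and at 143 ± 40.3 CPM in HPg PMA and 2.1 ± 0.656 CPM in HPg cells, with log2 differences of 6.81 (adjusted p = 2.33e-06) and 6.1 (adjusted p = 6.89e-06). Ier3, an apoptosis regulator and ZFP36 target, rose by 3.33 in KO cells (adjusted p = 2.43e-07) and by 2.79 in HPg cells (adjusted p = 1.39e-06). Nfkbiz, a regnase-1 target that encodes an atypical NF-κB inhibitor protein, rose by 3.48 in KO cells (adjusted p = 1.71e-06) and by 2.89 in HPg cells (adjusted p = 7.65e-06).

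The chemokine gene Ccl7 rose by 3.15 in KO cells (adjusted p = 0.000363) and by 3.42 in HPg cells (adjusted p = 0.000386), and Myc by 1.79 in KO cells (adjusted p = 5.82e-05) and by 1.17 in HPg cells (adjusted p = 0.00221). Tnf and Csf2, the classic targets of ZFP36 in macrophages, had at most 9 and 19 counts in a library and were not tested. Il6, a target of both families, had at most 23 counts, and its log2 difference with PMA was 0.69 in KO cells (adjusted p = 0.814) and 2.07 in HPg cells (adjusted p = 0.331). The HPg median includes Cxcl2, which had 0 counts in all HPg libraries, and it is also 1.15 with that gene at the bound set by a floor of 3 counts over the group.

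Between the lines, edgeR called none of the 24 tested target transcripts, with or without PMA, where it called 2.47% and 1.32% of all genes. At unadjusted p below 0.05 there were 14 with PMA, against 18.4% of all genes, and 3 without PMA, against 14.3%. Their median log2 difference of KO PMA over HPg PMA was 0.49, against 0.011 for all genes, and 21 of 24 lay above 0. DESeq2 called Ccl2, Dusp1, Fos, Myc and Pim1 higher in KO PMA than in HPg PMA cells. The blocked fit called 11 higher and 2 lower, the lower ones being Ptgs2 and Tfrc, where that fit called 18.6% of all genes in either direction. Without PMA the median of KO over HPg was 0.22, against 0.009 for all genes, and 0.1 with Cxcl2 at its bound. There DESeq2 called Ccl2 and Ccl7 higher, and the blocked fit called 3 higher and 1 lower (12.5% of all genes in either direction).

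**Figure D5:**
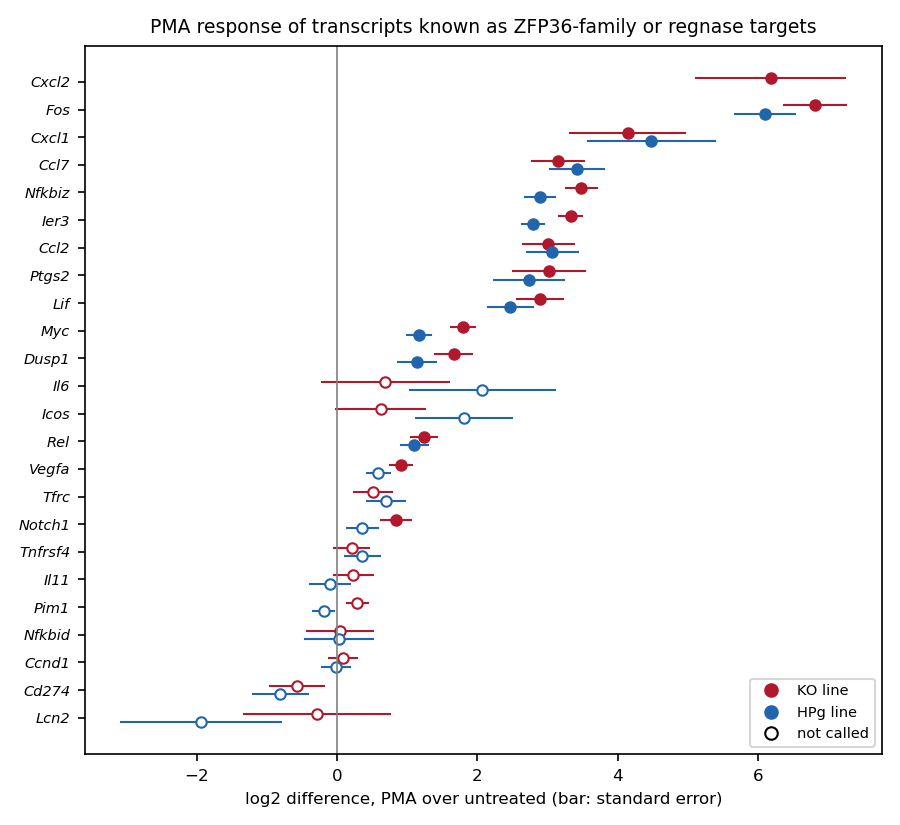
Points give the fitted log2 difference of PMA over untreated for the 24 tested target transcripts in the KO and the HPg line, with bars for the standard error, and are open where the gene was not called. The HPg value of Cxcl2 is left out because its untreated libraries are at 0. Fos has the largest called difference in KO cells, at 6.81.

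The profile of each member over the 12 libraries was set against 11108 other genes with a mean of at least 1 CPM, by Pearson's r of log2 CPM. The points share libraries and the PMA contrast, so r is given as a description. Closest to Zfp36 were Btg2 (r = 0.996), Nr4a1 (0.995) and Fos (0.994), all known immediate-early genes. Close to Zfp36l2 were Ccn1 (0.988) and Myc (0.981), and closest to Zc3h12a were Map2k3 (0.978), Tnfrsf1a (0.975) and Klf10 (0.974). Zfp36l1 was closest to Dnajb9 (0.954), Nr1d2 (0.953) and Polr3d (0.95), and Zc3h12c to Nf1 (0.98), Acyp2 (0.976) and Neto2 (0.962). Among the members, r ran from 0.85 to 0.97 for pairs of the 4 PMA-responsive genes and from 0.1 to 0.22 for pairs with Zc3h12c. After removing group means, Zfp36 and Zfp36l2 were at 0.75 and Zfp36l1 and Zc3h12a at -0.43.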

How the data were processed

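Libraries were directional, per the labels' protocols. The values are raw counts of each Ensembl gene as deposited, whole numbers with a different total in every library. The submitters' processing notes name build mm9 and, in no stated order, featureCounts 1.4.6-p3 (Subread), STAR 2.5.0a and cutadapt 1.11. No source used here gives the annotation release, the strand setting or whether reads or fragments were counted. In GENCODE M21 Zfp36, Zfp36l1 and Zfp36l2 each overlap a noncoding gene on the opposite strand, and Zc3h12c a microRNA gene, which are not analysed here. Reads from such partners cannot be told apart without strand.

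Genes were kept by filterByExpr (minimum count 10, minimum total 15) and scaled by TMM factors. All 12 libraries entered 1 fit with a coefficient per group, and edgeR 4.0.16 under R 4.3.3 gave quasi-likelihood tests with Benjamini-Hochberg adjustment over all 16630 genes. Intervals come from the fit's standard errors and t quantiles. Each comparison uses its own libraries, but those that share a group are not independent. With 3 libraries on each side the smallest exact permutation p is 0.1, so none is given. No replicate pair agreed within sampling noise (chi-square per degree of freedom at least 104.1). The procedure was also run on simulated counts drawn without an effect of replicate number, so that run does not cover the pairing described below.

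Replicate numbers in the labels pair the libraries: deviations from group means correlated at 0.159 to 0.558 in all 18 same-numbered pairs and at -0.517 to 0.163 in the other 36. Alternatives were DESeq2 1.42.0, other scalings and filters, fits of the compared groups alone, a replicate block and left-out libraries.

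The members and lists were chosen with earlier results of these data known. Of a list, the called genes were named, at most 4 in order of unadjusted p, or the first where none was called. Other genes named were chosen after their values were seen. Genes most like a member are the 3 with the highest r, predicted and clone names left out. For Zfp36l2, 1 of these is not reported here, nor is 1 gene of the lists.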

Additional observations from a re-analysis of the deposited data

How the results depend on the processing

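The number of members called with PMA was 4 in the KO line under every alternative run, and 3 or 4 in the HPg line. Between the lines with PMA, 1 member was called, against 4 with the replicate block, 2 with DESeq2, 2 without all libraries numbered 2 and 0 to 2 without 1 library. Without PMA, 1 was called, against 0 with library-size scaling, 0 in a fit of these groups alone, 0 without all libraries numbered 2 and 0 without any 1 library. Small differences changed sign: Zfp36l2 in KO over HPg without PMA was -0.1 without HPg library 3 and -0.03 without KO library 2, in a range up to 0.22 without 1 library, and Zc3h12c ranged from -0.11 without KO library 2 to 0.27. Zc3h12c with PMA in KO was 0.1 without all libraries numbered 2, 0.18 without KO library 2 and 0.09 without KO PMA library 1, in a range down to -0.2. The interaction of Zfp36l1 was -0.08 without HPg PMA library 3 and -0.02 without KO PMA library 1, in a range up to 0.24.

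Over all genes, KO PMA against HPg PMA gave 411 calls, against 3090 with the replicate block, 1128 with DESeq2, 1359 without all libraries numbered 2 and 60 to 573 without 1 library. KO against HPg gave 219, against 2083 with the block, 743 with DESeq2, 12 in a fit of these groups alone, 592 without the libraries numbered 2 and 46 to 329 without 1 library. PMA in HPg gave 574, against 2462 with the block, 1149 with DESeq2, 222 in a fit of these groups alone, 409 without the libraries numbered 2 and 244 to 332 without 1 library. PMA in KO gave 739, against 2221 with the block, 1248 with DESeq2 and 295 to 604 without 1 library. The interaction gave 0, against 1 with DESeq2 and 0 to 1 without 1 library. The causes were not tested. Library-size scaling moved the median of all genes in KO PMA against KO to -0.142.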

Other observations

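Beyond the members, the AU-rich heptamer was present in the 3′ untranslated region of 16 of the 24 tested target transcripts (66.7%) and the nonamer in 12 (50%). Of 13653 tested genes with an annotated 3′ region, 29.3% held the heptamer and 8.01% the nonamer, with a median region length of 1104 bases, against 1360 bases for the target transcripts. Of the 23 deadenylation, decapping and 5′ decay genes, 11 held the heptamer (47.8%) and 3 the nonamer, at a median length of 1623 bases. The target list mixes published targets of ZFP36 proteins, which bind this element, with targets of regnase-1, which cuts stem-loops. Its share is therefore not independent of the choice.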
